A study of Arabidopsis thaliana with 8 samples.

Results

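The acid growth machinery of Arabidopsis thaliana seedlings was followed through 8 genes, namely the plasma membrane proton ATPases AHA1, AHA2, AHA3 and AHA11 and the clade D type 2C protein phosphatases (PP2C) AT5G02760, AT3G17090, AT4G38520 and AT3G51370. They were taken by their locus numbers, and all 8 were among the 22951 genes of the expression table and among the 18798 that passed the minimum level for a test. RNA was sequenced from whole light-grown seedlings at the age of 5 days, after 4 days of cold at 4 °C and growth at 22 °C with 16 h of light and 8 h of dark. There were 2 libraries of seedlings overexpressing MIR394A (MIR394A_OE), 3 of the mutant bin2-1 and 3 of the wild type Col-0, and both lines were in the Col-0 background. The sources used here do not give the promoter of the MIR394A transgene, the number of independent lines or the number of seedlings per library. The series concerns miR394, a microRNA, with its target gene, and their part in brassinosteroid signalling during hypocotyl growth.

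In acid growth, plasma membrane ATPases pump protons into the cell wall, which loosens it and lets the cell expand. A pump is switched on when the threonine next to its C-terminal end is phosphorylated and a 14-3-3 protein binds there, and clade D PP2C phosphatases remove that phosphate. SAUR proteins, whose genes respond to auxin and brassinosteroid, inhibit these phosphatases. BIN2 is a kinase that holds brassinosteroid signalling back, and bin2-1 is a dominant allele that keeps it active. LCR, an F-box protein gene, is the known target of miR394. All of these controls on the pump act on the protein, whereas the values here are mRNA levels.

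The ends of the 4 pump coding sequences are shown because they hold the regulatory site. They were read from RefSeq's TAIR10.1 assembly, 5′ to 3′ on the coding strand, and the capitals mark the threonine codon that stands before the last amino acid codon and the stop codon.
AHA1: gatacagcaggacatcactacACTgtgtag
AHA2: attgaaactcccagtcactacACTgtgtag
AHA3: attgagacagctggtcactacACCgtttaa
AHA11: gaaaccattcaacaagcttacACCgtctga
These lie at chr2:8227239-8227268 on the plus strand (AHA1, exon 16 of 16), chr4:14770820-14770849 on the minus strand (AHA2, exon 15 of 15), chr5:23231208-23231237 on the minus strand (AHA3, exon 17 of 17) and chr5:25164928-25164957 on the plus strand (AHA11, exon 22 of 22). The codon in capitals is number 948 in AHA1, 947 in AHA2, 948 in AHA3 and 955 in AHA11. AHA1 and AHA2 use ACT and AHA3 and AHA11 use ACC, both codons for threonine, so all 4 genes encode the regulated residue.

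The phosphatases are shown at a catalytic motif of the PP2C family, Asp-Gly-His-Gly, whose aspartate helps to bind metal ions. The capitals mark its 4 codons.
AT5G02760: gtttacGATGGCCATGGAggtccagag
AT3G17090: gtttacGATGGTCATGGTggtcctgaa
AT4G38520: gtctacGACGGCCACGGTgggcctgag
AT3G51370: atctatGATGGCCATGGCgggcctgag
The motif was found in each of the 4 genes, at chr5:625599-625625 on the plus strand, chr3:5827242-5827268 on the plus strand, chr4:18017239-18017265 on the minus strand and chr3:19070297-19070323 on the plus strand, in the order above. RefSeq lists APD7 as another name of AT5G02760 and APD6 of AT4G38520.

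The 4 pumps have transcripts of 3293 to 3599 nt and coding sequences of 2847 to 2871 nt. For AHA1 this is the transcript that the expression table lists (3548 nt), while the longest one annotated for it, of 4073 nt, was used to estimate reads and to place it by length. The phosphatases are shorter, with transcripts of 1543 to 2303 nt and coding sequences of 1113 to 1203 nt. AHA1 and AHA2 are 89.2% identical over their aligned coding bases, while other pairs of pumps are 71.7% to 79.5% identical and pairs of phosphatases 57.7% to 71.5%. Only 16 of the 3499 windows of 50 bases in the AHA1 transcript (0.457%) also occur in another gene of the 2 families, and AHA2 shares 16 of its 3550 (0.451%). No such window was found in the other 6 genes, so exact matches of this length within the families were limited to that small stretch. The read length was not used here. AT5G02760 overlaps AT5G02770 on the opposite strand over 91 exonic bases (5.90% of its exons), and AHA11 overlaps AT5G62680 over 73 (2.22%). The sources used here do not say whether strand was used in counting, so reads in these stretches cannot be told apart.

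Depth was estimated at 9.67 to 11.3 M reads per library, at which 3 reads on 1 kb of transcript are worth 0.266 to 0.310 FPKM (fragments per kilobase of transcript, scaled to mapped fragments). The reads behind the 8 genes were estimated at 256 in the lowest case (AT5G02760) to 12482 in the highest (AHA1), which puts the counting error of a value between 1.38% and 6.25% at each gene's lowest library. Shoot markers summed to between 10150 and 16436 FPKM over the libraries, root markers to between 25.2 and 33.9 FPKM and pollen markers to at most 0.63 FPKM, so both shoot and root markers were present. LCR stood at 17.2 and 17.5 FPKM in MIR394A_OE, against 19.6, 19.6 and 23.9 FPKM in Col-0, a log2 fold change of -0.26 ± 0.22 (SE) that did not pass the test (adjusted p = 0.874), and MIR394A itself was not analysed here. BIN2 mRNA in bin2-1 (91.8 to 111 FPKM) overlapped Col-0 (94.1 to 111 FPKM), which checks nothing, because the allele alters the protein. One library stood apart in a way that touches the pumps. In MIR394A_OE replicate 1, genes with transcripts over 3 kb lay below the Col-0 mean by a median of -0.51 on the log2 scale and genes under 1 kb lay above it by 0.42, whereas MIR394A_OE replicate 2 showed 0.20 and -0.03.

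AHA1 and AHA2, the main pumps of most Arabidopsis tissues, had the highest means of the 8 genes in all 3 groups. AHA1 was read at 115 and 226 FPKM in MIR394A_OE, at 272, 281 and 264 FPKM in bin2-1, and at 233, 253 and 257 FPKM in Col-0. Both MIR394A_OE libraries were below every other library, but replicate 2 lay just under the Col-0 range and replicate 1 far under it, and all bin2-1 values were above all Col-0 values by a small margin. AHA2 was read at 89.1 and 107 FPKM in MIR394A_OE, at 188, 173 and 156 FPKM in bin2-1, and at 151, 135 and 166 FPKM in Col-0. Here both MIR394A_OE libraries lay clearly below all others, and bin2-1 and Col-0 overlapped.

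AHA3, known for its role in loading sugar into the phloem, was read at 24.5 and 42.4 FPKM in MIR394A_OE, at 42.2, 47.0 and 44.2 FPKM in bin2-1, and at 43.4, 39.6 and 34.5 FPKM in Col-0. MIR394A_OE replicate 1 was the lowest library and all other values lay close together, with overlap between each pair of groups. The 9 phloem markers summed to 437 to 475 FPKM in MIR394A_OE, 482 to 572 FPKM in bin2-1 and 438 to 502 FPKM in Col-0. By gene, 7 of the 9 were negative in MIR394A_OE against Col-0, and all 9 in MIR394A_OE against bin2-1. In bin2-1 against Col-0, 8 of the 9 were positive, and none passed the test in any comparison. Positive values were seen in 55.6%, 43.8% and 63.4% of all tested genes in these comparisons, in the order given. The part of the phloem markers in the AHA3 values was not tested. In whole seedlings, fewer cells of a type and less RNA per cell cannot be told apart. AHA11 was read at 11.0 and 18.1 FPKM in MIR394A_OE, at 19.4, 19.3 and 18.4 FPKM in bin2-1, and at 17.2, 16.1 and 17.5 FPKM in Col-0. AHA11 had the lowest mean of the 8 genes in each group. Its bin2-1 values were all above its Col-0 values, and MIR394A_OE replicate 1 was again lowest.

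Among the phosphatases, AT5G02760 varied most. Its level was 21.7 and 72.7 FPKM in MIR394A_OE, 92.7, 83.9 and 163 FPKM in bin2-1, and 15.1, 39.5 and 76.7 FPKM in Col-0. All bin2-1 libraries lay above all others, yet the Col-0 libraries spanned a wide range of their own, and only 0.872% of tested genes had a larger spread within groups (a pooled SD of 0.96 on the log2 scale). AT3G17090 was the steadiest, at 38.9 and 41.0 FPKM in MIR394A_OE, 50.1, 53.5 and 53.5 FPKM in bin2-1, and 37.3, 43.7 and 41.2 FPKM in Col-0. Its bin2-1 values stood clear of both other groups, and its pooled SD was 0.08, with 98.2% of tested genes more variable.

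AT4G38520 was read at 40.2 and 74.2 FPKM in MIR394A_OE, at 78.3, 75.1 and 95.2 FPKM in bin2-1, and at 51.8, 66.6 and 62.2 FPKM in Col-0. Again bin2-1 was above every library of the other groups, and MIR394A_OE reached on both sides of Col-0. AT3G51370 was read at 63.5 and 83.1 FPKM in MIR394A_OE, at 72.4, 82.9 and 97.8 FPKM in bin2-1, and at 70.0, 82.7 and 85.6 FPKM in Col-0. The 3 groups of AT3G51370 overlapped throughout.

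**Figure D1:**
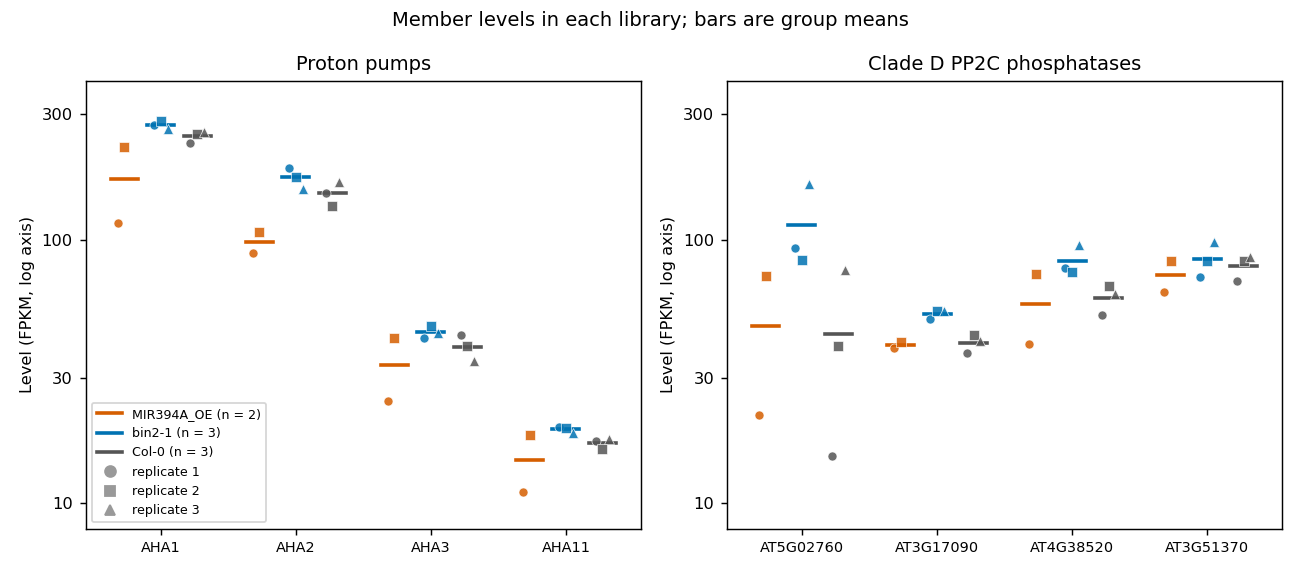
Level of each of the 8 genes in every library (FPKM, log axis), with pumps on the left and phosphatases on the right. Points are libraries, shaped by replicate number, and bars are the means of 2 MIR394A_OE, 3 bin2-1 and 3 Col-0 libraries. AHA2 lies lower in both MIR394A_OE libraries than in all others, and AT3G17090 lies higher in all bin2-1 libraries than in all others.

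FPKM values are per transcript length, so the genes could be ordered by level. In Col-0, AHA1 (248 ± 12.8 FPKM, mean ± SD, n = 3) stood above AHA2 (151 ± 15.6 FPKM), AT3G51370 (79.4 ± 8.33 FPKM) and AT4G38520 (60.2 ± 7.60 FPKM), with no overlap between neighbours in this order. AT5G02760 (43.8 ± 31.0 FPKM), AT3G17090 (40.7 ± 3.21 FPKM) and AHA3 (39.2 ± 4.43 FPKM) followed and could not be ordered, because their libraries overlapped with one another, and those of AT5G02760 also overlapped with AT4G38520 and AT3G51370. AHA11 had the lowest mean, at 17.0 ± 0.745 FPKM, but AT5G02760 in Col-0 replicate 1 (15.1 FPKM) lay below all Col-0 libraries of AHA11. In bin2-1 the order differed in that AT5G02760 took the third place at 113 ± 43.6 FPKM (n = 3), with libraries that overlapped those of AHA2 above it and AT3G51370 below it. In MIR394A_OE the order of means was that of Col-0, with AHA1 at 171 ± 78.1 FPKM, AHA2 at 98.1 ± 12.8 FPKM and AHA11 at 14.6 ± 5.01 FPKM (n = 2).

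The first comparison asked how the genes stood when miR394 was overexpressed. AHA1 and AHA2 had lower values in both MIR394A_OE libraries than in any of Col-0, by log2 fold changes of -0.61 ± 0.25 and -0.61 ± 0.17 (SE). The adjusted p was 0.873 for both in limma's test across all genes, so neither passed the threshold of 0.05. AHA3 (-0.27 ± 0.23) and AHA11 (-0.25 ± 0.21) overlapped with Col-0, and all 4 phosphatases lay near 0, from -0.13 ± 0.25 for AT4G38520 to 0.15 ± 0.66 for AT5G02760. None of the 8 genes was called by limma, where 0.0106% of all tested genes were called (2 of 18798). At an unadjusted p under 0.05, 2 of the 8 genes were lower and none higher, against 1.63% of all genes lower and 3.15% higher. Groups that did not overlap, with MIR394A_OE below, were seen for 2 of the 8 genes and for 6.17% of all genes. The median log2 fold change was -0.44 over the 4 pumps and -0.07 over the 4 phosphatases, beside 0.04 over all tested genes.

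The AHA1 value rested mostly on 1 library. Without MIR394A_OE replicate 1 it was -0.13, and without MIR394A_OE replicate 2 it was -1.09 (adjusted p = 0.0901). AHA2 moved less, to -0.48 without replicate 1 and -0.74 without replicate 2 (adjusted p = 0.119). AHA3 and AHA11 turned to 0.12 and 0.09 without replicate 1. With the other library left out, a single MIR394A_OE library was assumed to vary like the other groups.

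In bin2-1 against Col-0, the question was how the genes stood when brassinosteroid signalling was held back. All 4 phosphatases had positive log2 fold changes, and 3 of them were higher in every bin2-1 library than in every Col-0 library. AT5G02760 was higher by 1.56 ± 0.59 (95% interval 0.22 to 2.90, adjusted p = 0.228), AT3G17090 by 0.36 ± 0.13 (0.06 to 0.66, adjusted p = 0.221) and AT4G38520 by 0.45 ± 0.23 (-0.05 to 0.96, adjusted p = 0.321). AT3G51370 differed by 0.08 ± 0.17 (adjusted p = 0.836), with overlap. The pumps differed by 0.14 ± 0.22 (AHA1) to 0.20 ± 0.15 (AHA2), and AHA1 and AHA11 did so without overlap.

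None of the 8 genes passed limma's test in bin2-1, where 0.112% of all genes were called (21 of 18798). At an unadjusted p under 0.05, 2 of the 8 were higher, both phosphatases, beside 11.1% of all genes. Groups did not overlap, with bin2-1 above, for 5 of the 8 genes and for 20.2% of all genes. Positive fold changes were common in this comparison, at 63.4% of all tested genes with a median of 0.10, while the 4 phosphatases had a median of 0.41 and the 4 pumps of 0.17. The AT5G02760 value depended on the lowest Col-0 library and was 0.96 without Col-0 replicate 1 and 2.10 without Col-0 replicate 3. The direction of all 4 pumps and of AT3G51370 was also not stable to transcript length, since removing the trend of fold change with length turned AHA1 to -0.12, AHA2 to -0.04, AHA3 to -0.04, AHA11 to -0.06 and AT3G51370 to -0.03. The other 3 phosphatases kept positive values there, at 1.49 for AT5G02760, 0.24 for AT3G17090 and 0.31 for AT4G38520.

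Set directly against bin2-1, MIR394A_OE had negative fold changes for all 8 genes, while 43.8% of all tested genes had positive ones. AHA2 stood at -0.81 ± 0.17 (adjusted p = 0.102), AHA1 at -0.75 ± 0.25 (adjusted p = 0.177), AHA3 at -0.45 ± 0.23 and AHA11 at -0.41 ± 0.21. Among the phosphatases the values were -1.42 ± 0.66 for AT5G02760, -0.58 ± 0.25 for AT4G38520, -0.38 ± 0.15 for AT3G17090 and -0.20 ± 0.20 for AT3G51370. Groups did not overlap for 6 of the 8, AHA3 and AT3G51370 being the exceptions, and the share was 20.9% over all genes. No gene of the 8 was called by limma, with 0.0532% of all genes called (10 of 18798). At an unadjusted p under 0.05, 4 of the 8 were lower (AHA1, AHA2, AT3G17090 and AT4G38520), beside 10.9% of all genes. The median was -0.60 over the pumps and -0.48 over the phosphatases, beside -0.06 over all genes.

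This comparison depended strongly on which MIR394A_OE library was used. Without MIR394A_OE replicate 2, AHA1 stood at -1.23, AHA2 at -0.94, AHA3 at -0.83, AHA11 at -0.74 and AT4G38520 at -1.02. That fit rests on MIR394A_OE replicate 1 alone. In that library, genes over 3 kb had a median of -0.51 against the Col-0 mean and genes of 2 to 3 kb of -0.16. Without MIR394A_OE replicate 1, AHA1 was at -0.27, AHA3 at -0.07 and AHA11 at -0.07, whereas AHA2 was at -0.68. Among the phosphatases, AT4G38520 was then at -0.15 and AT5G02760 at -0.57. The 2 comparisons with Col-0 share the same control libraries, and both mutant groups also enter the third, so the 3 sets of values are not independent of each other.

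**Figure D2:**
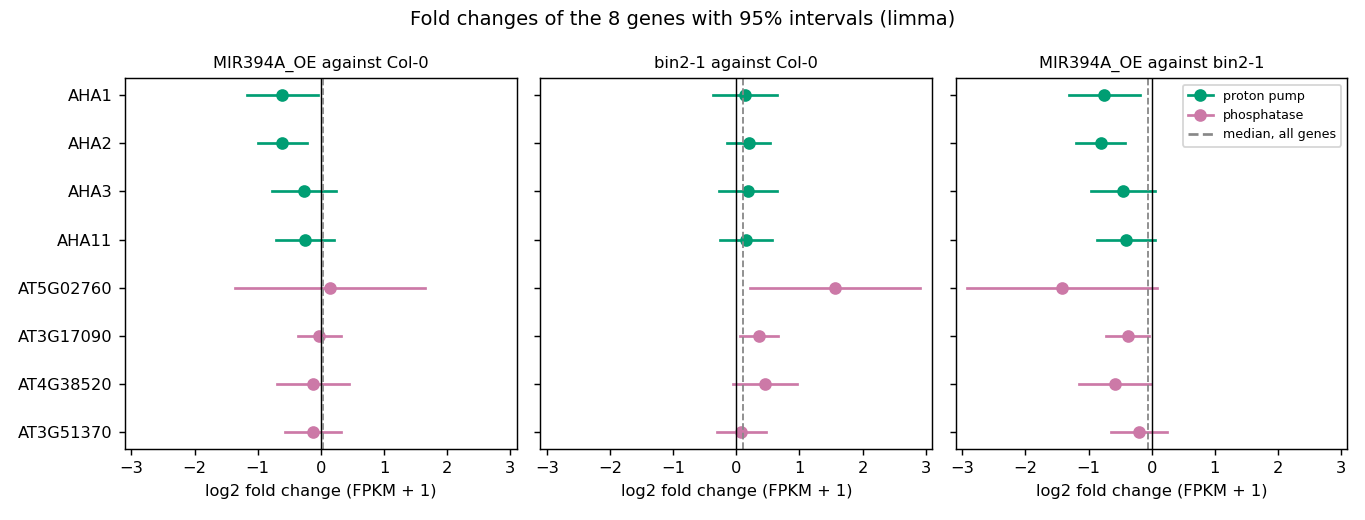
Log2 fold changes of the 8 genes in the 3 comparisons, on the log2(FPKM + 1) scale, with 95% intervals from limma. The dashed line is the median of all 18798 tested genes, and values left of 0 are lower in the group named first. AHA1 and AHA2 lie left of 0 in both comparisons of MIR394A_OE, and AT5G02760 has the widest intervals.

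Because the pumps are long transcripts, each library was also described by transcript length. Medians are log2 differences from the Col-0 mean over 2079 genes above 3 kb. They were -0.51 and 0.20 in MIR394A_OE, 0.13, 0.29 and 0.34 in bin2-1, and 0.14, 0.04 and -0.18 in Col-0. In MIR394A_OE replicate 1, AHA1 (-1.09), AHA2 (-0.74), AHA3 (-0.65) and AHA11 (-0.58) were all below that median, AHA11 only slightly. In MIR394A_OE replicate 2, AHA2 (-0.48) and AHA1 (-0.13) lay below both 0 and the median, and AHA3 (0.12) and AHA11 (0.09) lay between them. In the bin2-1 libraries the pumps lay between 0.06 and 0.32, beside the medians of 0.13 to 0.34 of their length class. With the trend removed, AHA1 and AHA2 stood at -0.46 and -0.48 in MIR394A_OE against Col-0, and no gene of the 8 had an unadjusted p under 0.05 in MIR394A_OE against bin2-1. Why transcript length moved with these libraries was not tested.

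**Figure D3:**
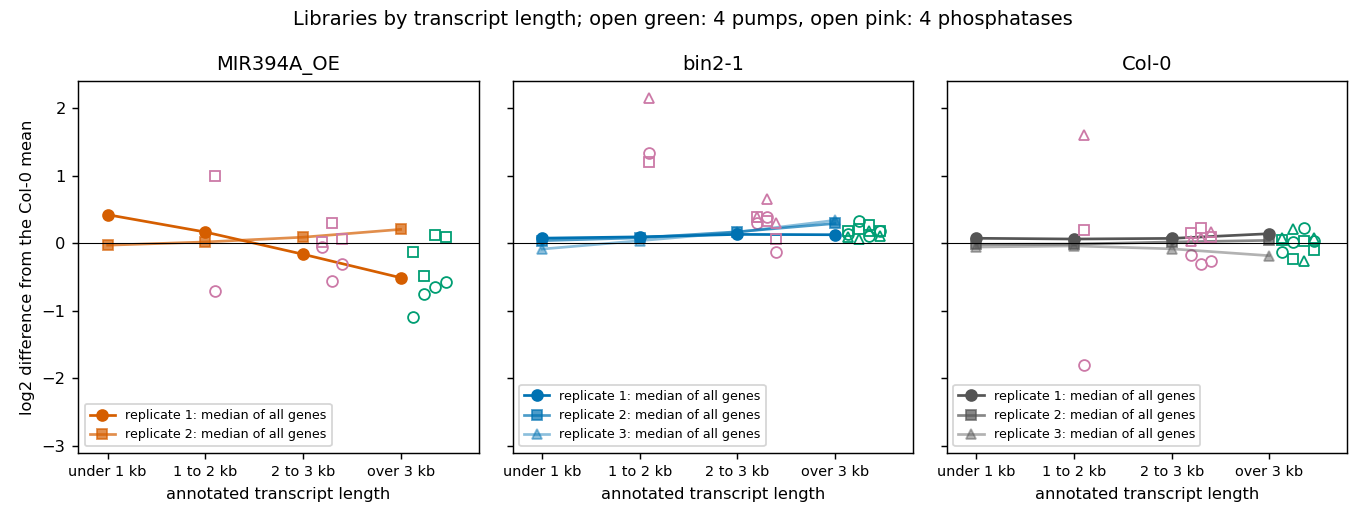
Median log2 difference from the Col-0 mean over all tested genes of 4 length classes (filled symbols and lines), by library, in MIR394A_OE, bin2-1 and Col-0. Open green symbols are AHA1, AHA2, AHA3 and AHA11 from left to right, and open pink symbols are the phosphatases at their length class. The line of MIR394A_OE replicate 1 falls from 0.42 under 1 kb to -0.51 over 3 kb, and the 4 pumps of that library lie at or below its end.

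The pump mRNA pool was summed over all listed family members. The 4 pumps described here made up 96.0% to 97.6% of it in every library, and AHA1 and AHA2 together 81.4% to 86.9%. The sum of the 4 pumps was 239.8 and 393 FPKM in MIR394A_OE, 521, 520.6 and 482 FPKM in bin2-1, and 444, 443 and 475 FPKM in Col-0. The 3 groups did not overlap in this sum, with MIR394A_OE lowest and bin2-1 highest, but the margin between bin2-1 and Col-0 was 482 against 475 FPKM. The ratio of AHA2 to AHA1 ranged from 0.475 to 0.773, and both of these extremes were MIR394A_OE libraries.

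The sum of the 4 phosphatases was 164 and 271 FPKM in MIR394A_OE, 293, 295 and 409.8 FPKM in bin2-1, and 174, 233 and 266 FPKM in Col-0. The bin2-1 libraries were highest, and MIR394A_OE and Col-0 overlapped. Divided by the pump sum, this gave 0.685 and 0.689 in MIR394A_OE, 0.563, 0.567 and 0.849 in bin2-1, and 0.392, 0.525 and 0.560 in Col-0. Every library of both lines therefore had a higher phosphatase to pump ratio than every Col-0 library, by a narrow margin in the case of bin2-1. In MIR394A_OE replicate 1, genes over 3 kb, the class of the pumps, had a median of -0.51 against the Col-0 mean. Genes of 2 to 3 kb had -0.16 and genes of 1 to 2 kb 0.17, the classes of the phosphatases. AT5G02760, the most variable of the 4, enters the phosphatase sum with 83.9 to 163 FPKM in bin2-1 and 15.1 to 76.7 FPKM in Col-0. The higher bin2-1 ratio therefore includes this gene's difference, and its part and that of length were not tested. When all 9 clade D phosphatases were set over all pumps, the ratios were 1.44 and 1.06 in MIR394A_OE, 0.694, 0.708 and 1.07 in bin2-1, and 0.782, 0.941 and 0.785 in Col-0, and bin2-1 then overlapped with Col-0.

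Of the 5 phosphatases added there, AT4G33920 (APD5) had the highest level in all MIR394A_OE and Col-0 libraries. It was read at 131 and 93.9 FPKM in MIR394A_OE, 21.0, 28.3 and 55.4 FPKM in bin2-1, and 128, 123 and 54.4 FPKM in Col-0. The bin2-1 libraries were low, 1 Col-0 library was as low as the highest of them, and MIR394A_OE stayed above all bin2-1 values. The log2 fold change was -1.54 ± 0.40 in bin2-1 against Col-0 (adjusted p = 0.122), 1.76 ± 0.45 in MIR394A_OE against bin2-1 (adjusted p = 0.120) and 0.22 ± 0.45 in MIR394A_OE against Col-0 (adjusted p = 0.944). AT4G33920 made up 36.6% and 21.6% of the summed FPKM of the 9 phosphatases in MIR394A_OE, 5.65%, 7.42% and 10.3% in bin2-1, and 35.7%, 28.6% and 14.2% in Col-0. AT5G02760 ran the other way, with 6.07% and 16.7% in MIR394A_OE, 25.0%, 22.0% and 30.4% in bin2-1, and 4.20%, 9.18% and 20.1% in Col-0. The 4 phosphatases described here made up 45.9% and 62.3% of the 9 in MIR394A_OE, 76.2% to 79.1% in bin2-1 and 48.6% to 69.6% in Col-0, so that bin2-1 lay above all other libraries.

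**Figure D4:**
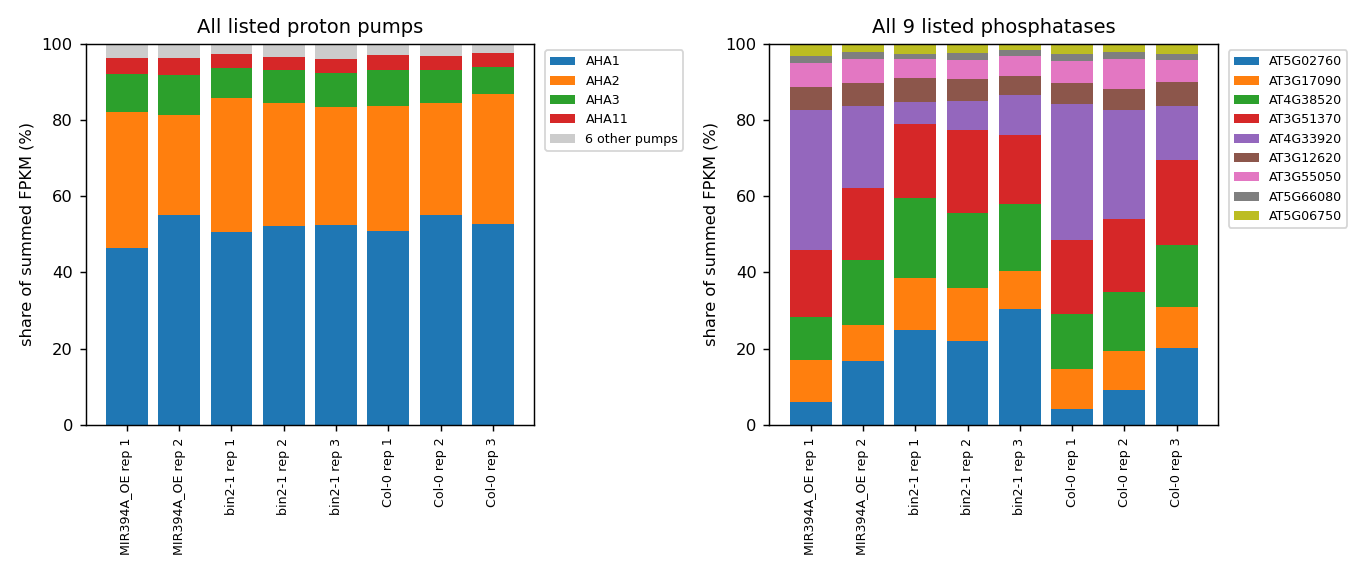
Share of summed FPKM (%) in each library, for the listed proton pumps on the left and for the 9 clade D phosphatases on the right. Each bar is 1 library and each colour 1 gene. AHA1 and AHA2 together take 81.4% to 86.9% of the pumps, while AT4G33920 takes 5.65% to 10.3% in bin2-1 against 14.2% to 35.7% in Col-0.

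None of the other family members was called by limma in any comparison, and besides AT4G33920 only AHA7, in MIR394A_OE against bin2-1, had an unadjusted p under 0.05. Among the further pumps, AHA5 (3.05 to 7.86 FPKM), AHA7 (3.59 to 7.48 FPKM), AHA8 (0.95 to 3.03 FPKM) and AHA4 (0.75 to 1.66 FPKM) passed the minimum level. AHA10 (0.06 to 0.41 FPKM) and AHA9 (0 to 0.09 FPKM) did not pass it, and AHA6 was not analysed here. The remaining phosphatases AT3G12620 (19.9 to 27.2 FPKM), AT3G55050 (18.6 to 33.9 FPKM), AT5G06750 (8.40 to 11.5 FPKM) and AT5G66080 (5.30 to 8.01 FPKM) overlapped between groups in every comparison.

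SAUR proteins act upstream of the phosphatases, and their mRNAs were at low levels. Of 9 listed SAUR regulators, 6 were tested and none was called by limma in any comparison. At an unadjusted p under 0.05, 1 of the 6 was higher in MIR394A_OE against Col-0, beside 3.15% of all genes. In bin2-1 against Col-0, 3 were higher (SAUR20, SAUR21 and SAUR22), beside 11.1% of all genes. In MIR394A_OE against bin2-1, 1 was lower, beside 10.9%. SAUR20 was read at 7.67 and 9.45 FPKM in MIR394A_OE, 4.69, 8.41 and 13.8 FPKM in bin2-1, and 1.14, 4.55 and 5.14 FPKM in Col-0, and its log2 fold change against Col-0 was 1.19 ± 0.49 in MIR394A_OE (adjusted p = 0.873) and 1.15 ± 0.44 in bin2-1 (adjusted p = 0.225). MIR394A_OE lay above all Col-0 values, and bin2-1 overlapped with Col-0. Without Col-0 replicate 1, the SAUR20 values were 0.71 in MIR394A_OE and 0.67 in bin2-1. SAUR22 was higher in bin2-1 than in Col-0 in every library, by 1.04 ± 0.27 (adjusted p = 0.122), and lower in MIR394A_OE than in bin2-1, at -0.80 ± 0.30 (adjusted p = 0.211), at levels of 0.19 to 3.05 FPKM. SAUR19 in MIR394A_OE against Col-0 (0.72 ± 0.38) and SAUR9 in MIR394A_OE against bin2-1 (-0.73 ± 0.40) overlapped between groups. SAUR72, named after its values were seen, ran against these, at 3.98, 3.72 and 2.24 FPKM in bin2-1 and 18.2, 4.85 and 4.01 FPKM in Col-0. It was lower in every bin2-1 library, at -0.96 ± 0.54 (adjusted p = 0.375), and at -0.35 without Col-0 replicate 1. SAUR19, SAUR20 and SAUR22 are near-identical neighbours, so their reads may have been split between them. SAUR21 lies between SAUR20 and SAUR22 on the same chromosome, so the genes higher in bin2-1 are all of 1 cluster.

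The 14-3-3 proteins, which hold the phosphorylated pump active, had positive fold changes for all 11 tested genes (12 were listed) in MIR394A_OE against Col-0, with a median of 0.24, beside 55.6% of all genes. By library, 10 of the 11 lay above the Col-0 mean in MIR394A_OE replicate 1 (median difference 0.40) and 7 in replicate 2 (median 0.03). Their transcripts are 1253 to 1643 nt long, and all genes of 1 to 2 kb had medians of 0.17 and 0.02 in these libraries. The part of transcript length in the 14-3-3 values was not tested. None was called by limma, and 1 was higher at an unadjusted p under 0.05, beside 3.15% of all genes. GRF11 was read at 7.40 and 7.24 FPKM in MIR394A_OE, 4.44, 6.0 and 5.10 FPKM in bin2-1, and 3.75, 5.03 and 3.13 FPKM in Col-0, with MIR394A_OE above every other library. Its log2 fold change was 0.76 ± 0.22 against Col-0 (adjusted p = 0.873) and 0.44 ± 0.22 against bin2-1 (adjusted p = 0.301), and it was 0.32 ± 0.19 in bin2-1 against Col-0 (adjusted p = 0.399). GRF5 differed by 0.24 ± 0.16 in MIR394A_OE against Col-0 and GRF9 by 0.28 ± 0.16 in MIR394A_OE against bin2-1. In bin2-1 against Col-0, 10 of the 11 were also positive, with a median of 0.16, beside 63.4% of all genes. GRF3 differed by 0.25 ± 0.19 in bin2-1 against Col-0. It was the 1 gene of the 11 that was higher there without overlap, beside 20.2% of all genes.

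Kinases and other regulators of the pump showed no call among 11 tested genes, and none had an unadjusted p under 0.05 in any comparison. PPI1, a proton pump interactor, was read at 140 and 231 FPKM in MIR394A_OE, 184, 249.8 and 341 FPKM in bin2-1, and 131, 212 and 152 FPKM in Col-0. Its groups overlapped, with a log2 fold change of 0.63 ± 0.28 in bin2-1 against Col-0 (adjusted p = 0.281). PKS5, a kinase known to restrain AHA2, differed by -0.57 ± 0.29 in bin2-1 against Col-0 and by 0.63 ± 0.32 in MIR394A_OE against bin2-1, with overlap in both. RALF1, a peptide that inhibits the pump, differed by 0.26 ± 0.27 and AT2G01820 by -0.35 ± 0.23 in MIR394A_OE against Col-0, and AT2G01820 by -0.39 ± 0.23 in MIR394A_OE against bin2-1.

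Proton pumps of the vacuole were set beside those of the plasma membrane. None of the 5 was called by limma, and none had an unadjusted p under 0.05 in bin2-1 against Col-0. In MIR394A_OE, 2 were lower at that p against Col-0, beside 1.63% of all genes, and 2 against bin2-1, beside 10.9%. AVP1, the vacuolar pyrophosphatase, was read at 92.5 and 167 FPKM in MIR394A_OE, 173, 203 and 164 FPKM in bin2-1, and 197, 197 and 195 FPKM in Col-0. Both MIR394A_OE libraries lay below all of Col-0 (-0.65 ± 0.24, adjusted p = 0.873), with replicate 1 the lowest, as for the pumps of the plasma membrane. In MIR394A_OE, VHA-A3 stood at -0.47 ± 0.20 against Col-0 and -0.55 ± 0.20 against bin2-1, and VHA-A at -0.50 ± 0.17 against bin2-1, lower in every library each time. These values rested mostly on replicate 1. Without it, AVP1 was at -0.23 and VHA-A3 at -0.17 against Col-0, and VHA-A3 at -0.24 and VHA-A at -0.34 against bin2-1. Without MIR394A_OE replicate 2, AVP1 was at -1.08 and VHA-A3 at -0.78 against Col-0, and VHA-A3 at -0.85 and VHA-A at -0.67 against bin2-1. DET3 did not follow the other vacuolar genes in MIR394A_OE, where it was read at 119.6 and 71.4 FPKM. It stood at 0.01 ± 0.23 against Col-0 and 0.21 ± 0.23 against bin2-1, with overlap in both. In bin2-1 against Col-0, VHA-A (0.22 ± 0.15) and DET3 (-0.20 ± 0.20) overlapped between groups.

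The genes with the most similar pattern over the 8 libraries were sought among 13822 genes that averaged 5 FPKM or more, by the root mean square difference of their centred log2 values. The nearest to AHA1 were AT5G65620 (0.06), GLDH (0.06) and emb2444 (0.06), and to AHA2 they were HSP81-2 (0.11), AT1G52780 (0.12) and UCN (0.12). AHA3 had ATSAC1 (0.04), AT5G11350 (0.04) and AT5G23890 (0.05) nearest, and AHA11 had PRL1 (0.03), ASA2 (0.04) and AT1G55090 (0.04). AT5G02760 had no close neighbour, its nearest being AT2G43140 (0.31), AT5G12050 (0.33) and AT2G41231 (0.37). The nearest to AT3G17090 were AT3G60800 (0.05), PXN (0.05) and TUB9 (0.05), to AT4G38520 they were AT1G64140 (0.06), RPM1 (0.06) and ERS1 (0.06), and to AT3G51370 they were SMO2-1 (0.07), AT5G21090 (0.07) and APD2 (0.07). APD2 here is AT5G01450, which is not among the listed clade D phosphatases despite the similar name. None of these lists held another of the 8 genes.

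The miR394 sequence and its site in LCR are shown because the 8 genes could be searched for a like site. In DNA letters from TAIR10.1, bases 2 to 8 of the microRNA (its seed) are in capitals, and the capital in the site marks a base that does not pair.
miR394a: tTGGCATTctgtccacctcc
LCR site: ggaggtTgacagaatgccaa
They lie at chr1:7058207-7058226 and chr1:9497605-9497624, both on the plus strand. Counting 1 for each mismatch and 0.5 for each G-U pair, the best site scored 1 in LCR, while the 8 genes scored 5.5 (AHA2, AHA3, AHA11), 6 (AT5G02760), 6.5 (AHA1), 7 (AT3G17090, AT3G51370) and 8 (AT4G38520). The median over 18709 genes was 7, and 8.26% of them scored 5.5 or lower, as AHA2, AHA3 and AHA11 did. The score takes no account of transcript length. No site comparable to that of LCR was found in the 8 transcripts by this score.

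The 250 bases before each gene start were searched on both strands for the brassinosteroid response element (CGTGTG or CGTGCG), the G-box (CACGTG), the E-box (CANNTG, which includes every G-box) and the auxin response element (TGTCTC or TGTCGG). Over 27443 genes, 6.71% of such windows held the brassinosteroid element, 6.49% the G-box, 55.3% the E-box and 14.7% the auxin element. Of the 8 genes, AT3G51370 alone matched any of them, with 1 brassinosteroid element, 1 G-box and 4 E-boxes, one of which is the G-box. Its window is shown because it holds all matches among the 8 genes (chr3:19068877-19069126, plus strand, matches in capitals).
AT3G51370: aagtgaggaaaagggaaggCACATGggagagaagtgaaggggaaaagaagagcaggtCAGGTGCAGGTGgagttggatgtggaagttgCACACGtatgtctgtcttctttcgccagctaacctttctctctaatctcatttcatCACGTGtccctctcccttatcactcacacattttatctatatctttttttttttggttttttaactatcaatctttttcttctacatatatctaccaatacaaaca
The brassinosteroid element begins 162 bases and the G-box 106 bases before the gene start. AT3G51370 differed by 0.08 ± 0.17 in bin2-1 against Col-0. The part of these elements in the levels of the 8 genes was not tested, and longer stretches before the gene start were not searched.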

How the data were processed

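The authors deposited FPKM values in a single table with a column for each library, per the file headers. Libraries came from an Illumina TrueSeq RNA kit, per the labels' protocols, and the tools listed per the submitters' processing notes are Bowtie2 and HISAT, with no role stated. The sources used here give neither their versions nor a genome build nor a strand setting. Of 22951 genes, 22798 matched the TAIR10.1 gene table by gene number, which gave names, lengths and sequences. Depth was worked out from the value of 1 read, as seen in the low FPKM values of 1646 genes, of which 87.6% to 92.3% were whole reads within 0.1 read, against 20.0% by chance, and these estimates cover counting error only.

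Values were tested as log2(FPKM + 1) with limma 3.58.1 in R 4.3.3, which understates fold changes of low genes. Genes averaging 1 FPKM or more (18798) entered 1 fit over all 8 libraries (1 mean per group, eBayes with trend and robust). Two-sided p-values were adjusted by Benjamini-Hochberg over all tested genes, with a threshold of 0.05. Errors of fold changes are standard errors, and intervals are at 95%. No label ties replicates to separate sowings, so the p-values reflect only how these samples varied, possibly for technical reasons.

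The 8 genes and the gene lists were chosen with earlier results of these data known. Named genes are the 8, the other family members, LCR and BIN2, the 2 genes of each regulator list with the smallest p in a comparison, and the 3 nearest patterns per gene. SAUR21 and SAUR72 were added after their values were seen. Marker lists for phloem, guard cells, shoot, root, pollen and seed are given as sums, with directions counted for phloem only. Guard cell markers summed to 268 to 330 FPKM in MIR394A_OE, 207 to 253 FPKM in bin2-1 and 206 to 239 FPKM in Col-0, and the seed storage marker to at most 7.41 FPKM. The fit was tested on simulated data. Alternatives changed the pseudocount, the filter, the scaling, the replicate block, the groups in the fit and eBayes, and left out each library in turn. Removing the length trend and leaving out replicate 1 of both MIR394A_OE and Col-0 were chosen after seeing the data.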

Additional observations from a re-analysis of the deposited data

How the results depend on the processing

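No gene of the 8 was called in any of the 3 comparisons under any alternative, except MIR394A_OE against bin2-1 with a library left out, where 0 to 5 were called. The upper end came from the fit without MIR394A_OE replicate 2, which rests on a single MIR394A_OE library, with VHA-A at -0.67 and VHA-A3 at -0.85. The correlation of deviations between groups ranged from -0.20 to 0.36 for same-numbered libraries and from -0.36 to 0.44 for the others. The deviations of the 2 MIR394A_OE libraries mirror each other, so these values cannot decide whether the replicate numbers pair the libraries. With a replicate block, 0 of the 8 genes were called in each comparison, and 2, 32 and 9 genes in all, against 2, 21 and 10 without it (MIR394A_OE against Col-0, bin2-1 against Col-0, MIR394A_OE against bin2-1). Calls over all genes in bin2-1 against Col-0 also moved to 3 without a filter, 112 under the median of ratios, 9 without trend and robust, 140 with the length trend removed and 0 with the 2 groups fitted alone. In MIR394A_OE against bin2-1 they moved to 6 with a pseudocount of 0.1 or 0.5 FPKM, 3 without a filter, 15 under quantile scaling and 0 with the 2 groups fitted alone. In MIR394A_OE against Col-0 they moved to 1 with the length trend removed and 0 with the 2 groups fitted alone. With 1 library left out, calls ranged from 0 to 2, from 0 to 180 and from 1 to 2308 in the 3 comparisons. The cause was not tested.

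Some values changed sign between alternatives, by small amounts in some genes and by large ones in others, such as AT5G02760. In MIR394A_OE against Col-0, leaving out libraries gave log2 fold changes of -0.65 to 0.19 for AHA3, -0.58 to 0.10 for AHA11, -0.70 to 0.99 for AT5G02760, -0.085 to 0.026 for AT3G17090, -0.56 to 0.30 for AT4G38520, -0.31 to 0.069 for AT3G51370, -0.18 to 0.46 for AT4G33920 and -0.050 to 0.46 for RALF1. Without replicate 1 of both MIR394A_OE and Col-0, AHA3 was at 0.19, AHA11 at 0.10, AT4G38520 at 0.20 and RALF1 at -0.050. In bin2-1 against Col-0, AT3G51370 ranged from -0.031 to 0.18 with libraries left out, and stood at -0.0074 without replicate 1 of both MIR394A_OE and Col-0 and at -0.032 under the median of ratios. Removing the length trend gave -0.12 for AHA1, -0.043 for AHA2, -0.041 for AHA3, -0.061 for AHA11 and -0.033 for AT3G51370. The pump sum in bin2-1 was 482 FPKM under the median of ratios, against 508 FPKM as deposited, and Col-0 then stood at 467 FPKM against 454 FPKM. The phosphatase to pump ratio in MIR394A_OE was 0.692 under quantile scaling, against 0.687.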
